A study of Mus musculus with 14 samples.

Results

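The genes described here are those of the interferon response on the arrays: the interferons and their receptors, the Stat and Irf transcription factors, and the families that interferon induces. They were chosen by name, as probe sets with a single gene symbol starting with Ifi and a digit, Ifih, Ifit (which takes in Ifitm), Irf and a digit, Isg, Oas, Mx1, Mx2, Gbp, Iigp, Irgm, Igtp, Stat and a digit, Ifna, Ifnb or Ifng, together with Rsad2 and without Irf4. The rule found 110 probe sets of 78 genes, among 29131 probe sets of 15964 genes with a single symbol. Another 8 probe sets that list several genes of this kind were left out, and Irf2 was not analysed here.

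RNA of Mus musculus spleen cells was hybridised to 14 arrays of 3 sets with different probe sets, called A, B and C after the last letter of the sample titles. FDC-E stands for primary splenocytes in which follicular dendritic cells (FDC), the antigen-retaining stroma of B cell follicles, were enriched, and FDC-D for primary splenocytes depleted of them. Set A and set C held FDC-E samples 1, 2 and 3 and FDC-D samples 1 and 2, and set B held FDC-E samples 2 and 3 and FDC-D samples 1 and 2. The labels used here name no strain, age, immunisation or sorting procedure, and since no label calls the samples separate animals or isolations, the p-values measure a spread between samples that may be technical.

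Interferons are secreted proteins that make cells resistant to viruses and intracellular microbes. Type I interferons (the Ifna genes and Ifnb1) bind the receptor chains Ifnar1 and Ifnar2, and signal through Stat2 and Irf9, among others, to the interferon-stimulated response element, a pair of GAAA repeats in the promoters of induced genes. Interferon gamma (Ifng), made by T cells and NK cells, binds Ifngr1 and Ifngr2 and acts on promoters at the gamma-activated site. Many Irf and Stat genes also have constitutive roles in lymphocytes and myeloid cells, which make up most of a spleen.

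Promoter sequences were taken from RefSeq (GRCm38.p6), which listed 65 of the 78 genes in windows of 250 bases before to 50 bases after the transcription start. The letters GAAANNGAAA, the core of the interferon-stimulated response element, were present on either strand in the window of 31 of the 65 genes (47.7%), against 3.99% of the 27025 genes in the table. The letters TTCNNNGAA, the core of the gamma-activated site, which read the same on both strands, were present in 19 (29.2%), against 9.55% of all genes. Some of these genes are duplicated copies with shared sequence, and the windows of Ifit1 and Ifit1bl2 overlap on opposite strands, so the matches are not independent of each other. A match describes the letters only, and matches of the GAAA pair can overlap.

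The 150 bases before the start are given for 4 genes that rose in FDC-E cells and hold the GAAA pair, with the matches in capitals (a match on the other strand reads TTTCNNTTTC). They lie at chr19:34640739-34640888 (+ strand) for Ifit1, chr19:34583379-34583528 (+ strand) for Ifit3, chr4:156200819-156200968 (- strand) for Isg15 and chr12:26456453-26456602 (- strand) for Rsad2.
Ifit1: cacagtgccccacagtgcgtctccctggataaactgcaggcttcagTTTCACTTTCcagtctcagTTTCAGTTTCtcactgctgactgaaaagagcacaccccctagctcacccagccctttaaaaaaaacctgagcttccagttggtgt
Ifit3: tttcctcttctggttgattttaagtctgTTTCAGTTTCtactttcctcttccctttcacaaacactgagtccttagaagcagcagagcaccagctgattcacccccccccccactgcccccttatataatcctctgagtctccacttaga
Isg15: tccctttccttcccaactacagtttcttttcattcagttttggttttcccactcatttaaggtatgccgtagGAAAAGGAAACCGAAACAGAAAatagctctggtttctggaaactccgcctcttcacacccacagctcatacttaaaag
Rsad2: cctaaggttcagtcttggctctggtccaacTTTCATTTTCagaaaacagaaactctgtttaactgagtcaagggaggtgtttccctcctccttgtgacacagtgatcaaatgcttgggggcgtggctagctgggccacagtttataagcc
In the Ifit1 stretch the matches begin at -104 and -85, counted from the start. Isg15 had 3 overlapping matches from -78 on, and the match of Rsad2 lay at -120. The match of Ifit3 in capitals lay at -122. Ifit3 had another at -156, which is cut by the printed stretch and left in lower case.

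Irgm2 and Irf1 are shown for the gamma-activated site. Irgm2, at chr11:58214827-58214976 (+ strand), held a TTCNNNGAA match at -75 next to a GAAA pair at -64. Irf1, at chr11:53769864-53770013 (+ strand), held 1 at -90. RefSeq listed 2 starts for Irf1, and the printed 1 was taken because its window held a match. Ifi207 and Ifi213, at chr1:173741810-173741959 (- strand) and chr1:173599273-173599422 (- strand), are shown because their levels moved in opposite directions although both carry the letters GAAATCGAAA, at -41 in Ifi207 and at -73 in Ifi213.
Irgm2: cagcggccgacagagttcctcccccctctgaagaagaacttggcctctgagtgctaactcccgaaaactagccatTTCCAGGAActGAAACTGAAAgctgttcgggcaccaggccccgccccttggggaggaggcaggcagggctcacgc
Irf1: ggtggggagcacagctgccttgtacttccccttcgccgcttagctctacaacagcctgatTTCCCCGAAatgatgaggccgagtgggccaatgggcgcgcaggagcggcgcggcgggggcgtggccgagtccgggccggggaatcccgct
Ifi207: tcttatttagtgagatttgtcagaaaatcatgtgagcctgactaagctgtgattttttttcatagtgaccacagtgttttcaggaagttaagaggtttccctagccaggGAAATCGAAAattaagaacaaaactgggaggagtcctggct
Ifi213: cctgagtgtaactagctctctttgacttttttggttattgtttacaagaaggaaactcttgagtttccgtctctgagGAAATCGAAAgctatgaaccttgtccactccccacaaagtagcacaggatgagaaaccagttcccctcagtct
Of the genes in the promoter table, the GAAA pair was present in 9 of 17 that rose in FDC-E cells, 2 of 12 that fell (Ifi213 and Stat4), 13 of 26 that did not pass the test and 7 of 10 that were too dim to test.

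The values are hybridisation intensities on a linear scale, and each array set was fitted separately with limma on log2(intensity + pseudocount), where the pseudocount is a low percentile of the set. Probe sets that stayed dim were not tested, and rose or fell is written of those with a Benjamini-Hochberg adjusted p under 0.05. Fold changes are FDC-E over FDC-D on that scale, and a number given for a gene without a unit beside its adjusted p is a log2 fold change. Statements that the arrays of the groups did not overlap describe the printed values only. The share of all tested probe sets without overlap is not given here, so such statements add no support to a call.

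The genes moved in both directions. Of the 78 genes, 66 had a probe set bright enough to test, and at the brightest tested probe set 21 rose in FDC-E cells, 15 fell and 30 did not pass. The risers made up 31.8% of the tested genes, where 19.3% of all 12267 tested genes rose, and those that fell 22.7%, where 14.5% of all fell. The median log2 fold change was 0.09 over the 66 genes and 0.02 over all tested genes. On the log2 scale 8 of the 66 lay above 1 and 1 below -1. Those above were Iigp1, Ifitm3, Rsad2, Ifit1, Isg15, Ifi207, Ifnb1 and Ifit2, and the 1 below was Ifi209. For a gene on several array sets, brightest means the highest rank in level within a set. Another probe set stood for Ifih1 and Ifi213, so Ifih1 on set A (1.63) and the dimmer Ifi213 probe set (-1.17) are outside these counts. No Stat or Irf gene reached that size in either direction.

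**Figure D1:**
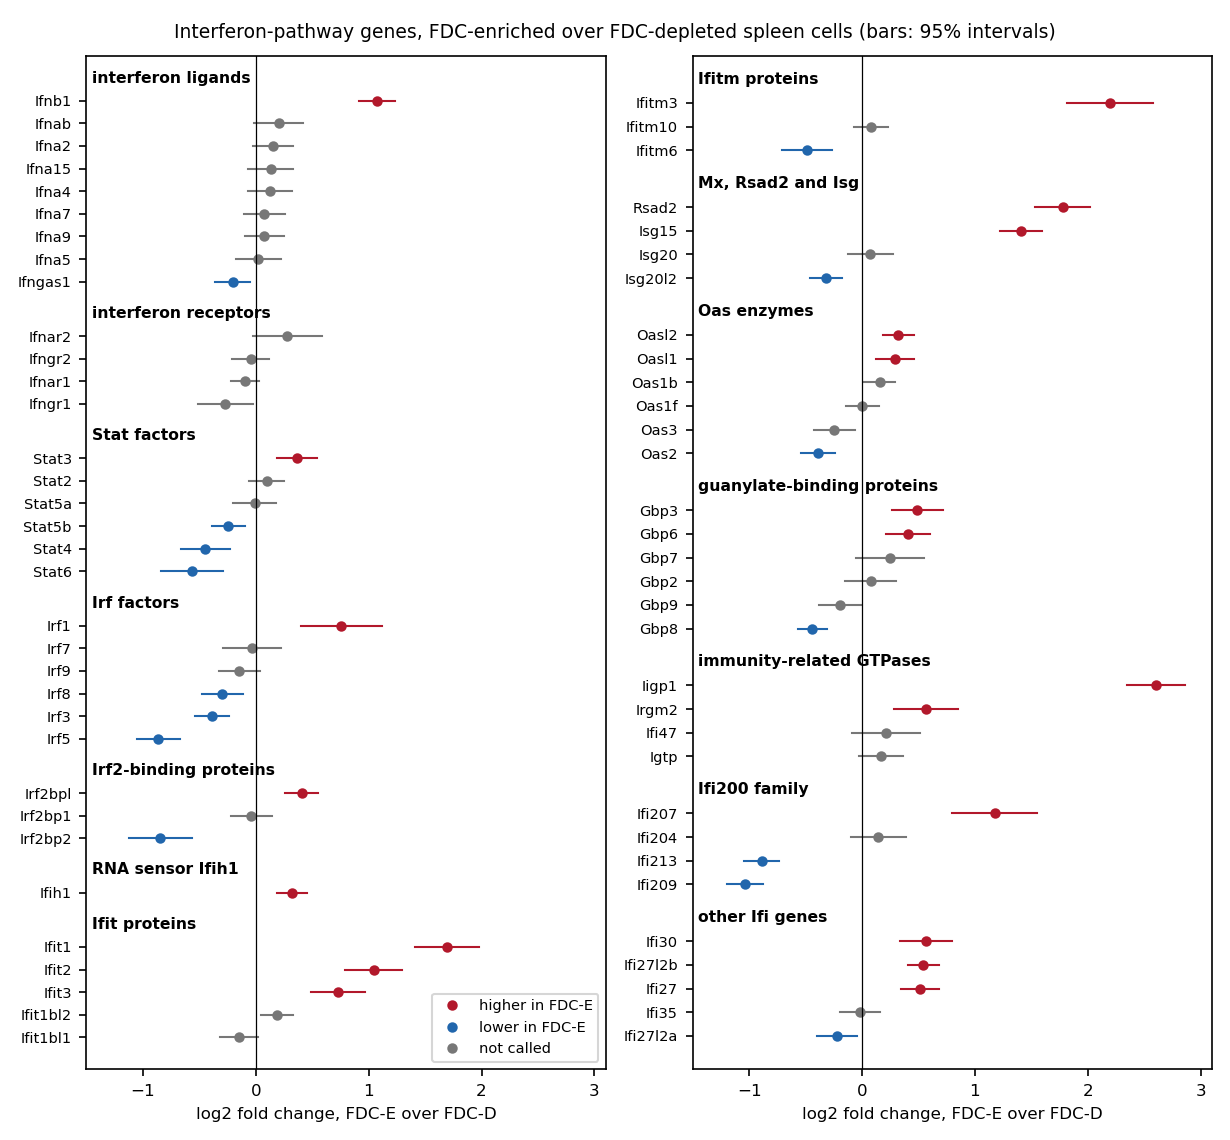
Log2 fold change of FDC-E over FDC-D cells (x axis) for the 66 tested genes at their brightest tested probe set, grouped by role, with 95% intervals from limma and colours for the call. Iigp1 lies farthest to the right at 2.61 and Ifi209 farthest to the left at -1.04.

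By array set, 19 of 54 tested probe sets rose and 9 fell on set A, 6 of 24 rose and 8 fell on set B, and 4 of 12 rose and 1 fell on set C. Over all tested probe sets the shares that rose were 23.1% on A, 19.4% on B and 9.5% on C, and the shares that fell were 17.9%, 17% and 8.73%. Of the probe sets described here, 16.7% fell on set A and 8.33% on set C, which lay near the share of the arrays as a whole, and 25% rose on set B. These counts leave out 20 probe sets that failed the filter on dim signals, with intensities of 7.74 to 156. Another 7 probe sets passed it through 1 group only, 5 through FDC-E arrays (Ifit1, Ifit2, Ifnb1, Iigp1 and Ifih1 on set A) and 2 through FDC-D arrays (Ifi209 and an Ifi213 probe set). A probe set that passed in this way had to differ between the groups, so the counts and medians are descriptions and not support for a direction.

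**Figure D2:**
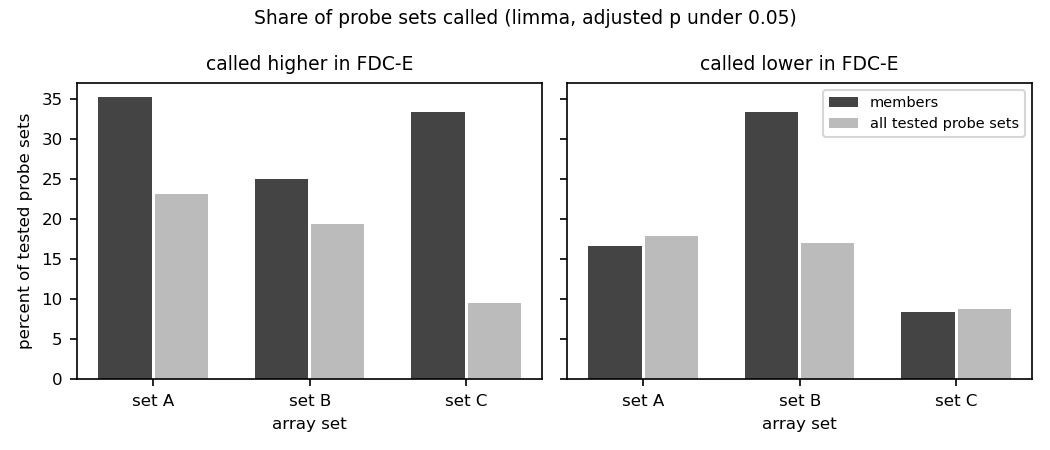
Percent of tested probe sets called higher (left) or lower (right) in FDC-E cells on each array set, for the interferon-pathway members (dark bars) and for all tested probe sets (light bars). On set A 35.2% of members were called higher, against 23.1% of all, and 16.7% lower, against 17.9% of all.

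The makeup of the fractions moved with these results. Of the markers tested, 9 of 9 FDC genes, 10 of 10 endothelial, 11 of 11 macrophage and 6 of 7 fibroblast genes rose in FDC-E cells. By contrast, 8 of 9 B cell, 8 of 9 T cell and 6 of 6 NK cell genes fell. Of 6 plasmacytoid dendritic cell genes, 1 of which is Irf8, 2 rose and 3 fell. No gene of these lists had a mean intensity of 0 over all arrays at its brightest probe set. Summed over the markers on set A, intensities were 22869 to 27231 on FDC-E arrays and 5917 to 6828 on FDC-D arrays for FDC. For endothelium they were 17426 to 19672 on FDC-E arrays and 1694 to 1756 on FDC-D arrays, and for macrophages 22241 to 26605 on FDC-E arrays and 9907 to 11800 on FDC-D arrays. For fibroblasts they were 7403 to 8386 on FDC-E arrays and 2067 to 2070 on FDC-D arrays. For B cells they were 6994 to 9026 on FDC-E arrays and 22734 to 23119 on FDC-D arrays, for T cells 2395 to 2511 on FDC-E arrays and 5959 to 6356 on FDC-D arrays, and for NK cells 1370 to 1612 on FDC-E arrays and 3791 to 4183 on FDC-D arrays. For plasmacytoid dendritic cells they were 6861 to 7338 on FDC-E arrays and 10620 to 10653 on FDC-D arrays. In such mixed cells fewer cells of a type and less RNA per cell cannot be told apart, and the part of the makeup in the changes described here was not tested. Median intensities were higher on every FDC-E array (264.7 to 279 on set A) than on the FDC-D arrays of its set (244 and 250.8 on set A), and the deposited scale keeps this offset.

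Among the ligands, Ifnb1, the gene of interferon beta, rose and no Ifna gene passed the test. Ifnb1 had intensities of 336, 365 and 377 on the FDC-E arrays of set A, against 122 and 126 on the FDC-D arrays. The FDC-E values all lay above the FDC-D values, with a 2.11-fold difference (log2 fold change 1.08 ± 0.07 SE, adjusted p = 7.48e-06). This probe set passed the filter through the FDC-E arrays alone, so its direction is given as a description. The 7 tested genes of the interferon alpha cluster had log2 fold changes of 0.02 (Ifna5) to 0.20 (Ifnab), with an adjusted p of 0.12 or more. Ifnab had 952, 770.3 and 857 on FDC-E arrays and 726 and 738 on FDC-D arrays, Ifna2 had 931, 869 and 859 on FDC-E arrays and 757 and 821 on FDC-D arrays, and Ifna15 had 393, 331 and 322 on FDC-E arrays and 315 and 304 on FDC-D arrays. In these 3 genes every FDC-E value lay above every FDC-D value, by small margins. The groups overlapped in the other tested genes of the cluster, Ifna4, Ifna5, Ifna7 and Ifna9. All 7 were read by probe sets whose name carries an f, a mark of probes shared within a gene family, so signals of the near-identical Ifna copies cannot be told apart. Ifna11 was too dim to test, at 39.5 to 45.8.

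The gene of interferon gamma, described here after its values were seen, was too dim to test. Ifng had intensities of 81.1, 73.2 and 70.3 on FDC-E arrays and 143 and 122 on FDC-D arrays. Ifngas1, a noncoding RNA gene beside Ifng, had 358 and 309 on the FDC-E arrays of set B and 395 and 397 on its FDC-D arrays. It fell 1.15-fold (adjusted p = 0.0453), a call that did not hold without FDC-E sample 3, without either FDC-D sample or without the filter on dim probe sets (adjusted p from 0.00496 to 0.278 over the alternatives).

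No receptor gene passed at its brightest probe set. Ifngr1, which binds interferon gamma, had 545, 626 and 573 on FDC-E arrays and 637 and 808 on FDC-D arrays (log2 fold change -0.27, adjusted p = 0.0739), and its lowest FDC-D value lay just above its highest FDC-E value. Ifngr2, the signalling chain, had 2224 and 2402 on FDC-E arrays and 2264 and 2521 on FDC-D arrays of set B, which overlap. For the type I receptor the probe sets of a gene differed. Ifnar1 had 1101, 1072 and 1047 on FDC-E arrays and 1112 and 1187 on FDC-D arrays of set C (-0.09, adjusted p = 0.29), whereas its probe set on set A had 512, 556 and 562 on FDC-E arrays and 706 and 654 on FDC-D arrays and fell 1.22-fold (adjusted p = 0.0179). Ifnar2 had 472, 567 and 662 on FDC-E arrays and 502 and 400.1 on FDC-D arrays at its brighter probe set (0.28, adjusted p = 0.135). The dimmer Ifnar2 probe set, marked as shared by several transcripts, had 322, 380.5 and 342 on FDC-E arrays against 162 and 186 on FDC-D arrays and rose 1.66-fold (adjusted p = 0.000178).

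The Stat genes encode signal transducers of cytokine receptors. Of 6 tested, 3 fell, 1 rose and 2 did not pass, where 14.5% of all tested genes fell and 19.3% rose. Stat6, which carries the interleukin 4 signal, had 617, 822 and 702 on FDC-E arrays and 1177 and 1015 on FDC-D arrays. It fell 1.48-fold (-0.57 ± 0.12 SE, adjusted p = 0.00538). Stat4, which carries the interleukin 12 signal in T and NK cells, had 360.4, 318 and 278 on FDC-E arrays, against 451 and 481 on FDC-D arrays, and fell 1.36-fold (-0.45 ± 0.09 SE, adjusted p = 0.00564). Stat5b, used by interleukin 2 and growth hormone receptors, had 857 and 859 on the FDC-E arrays of set B and 1070.2 and 989 on its FDC-D arrays, and fell 1.18-fold (adjusted p = 0.0176). Its probe set on set A did not pass (-0.13, adjusted p = 0.274). That probe set had 363, 297 and 344 on FDC-E arrays and 388 and 359.9 on FDC-D arrays, which overlap. In Stat6, Stat4 and Stat5b every FDC-E value lay below every FDC-D value at the brightest probe set.

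Stat2, a partner of Irf9 in type I signalling, had 1423 and 1298 on FDC-E arrays and 1242 and 1287 on FDC-D arrays of set B. It did not pass (0.10, adjusted p = 0.313). Stat5a had a log2 fold change of -0.01 at a probe set marked as shared within a family, and did not pass. Stat3, which carries interleukin 6 signals, gave opposite results at different probe sets. The brightest, on set A, had 1171, 1285 and 1261 on FDC-E arrays and 924 and 957 on FDC-D arrays, and rose 1.29-fold (0.37 ± 0.08 SE, adjusted p = 0.00568). A probe set on set C had 247, 288 and 292 on FDC-E arrays, against 443 and 386 on FDC-D arrays, and fell 1.42-fold (-0.51 ± 0.08 SE, adjusted p = 0.00248). Another on set A had a log2 fold change of 0.25 (adjusted p = 0.102), so the direction of Stat3 was not settled by these arrays. The calls of 4 Stat genes each failed without 1 FDC-D array. Over the alternatives the adjusted p reached 0.075 for Stat3 and 0.0601 for Stat6 without FDC-D sample 1 of set A (lowest 0.00159 and 0.000601), 0.056 for Stat4 without FDC-D sample 2 of set A (lowest 0.000834), and 0.147 for Stat5b without FDC-D sample 1 of set B (lowest 0.00654).

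Irf1 rose while Irf3, Irf5 and Irf8 fell. Irf1, itself induced by interferon gamma and an activator of many induced genes, had 2323, 3143 and 3333 on FDC-E arrays and 1854 and 1519 on FDC-D arrays. It rose 1.69-fold (0.76 ± 0.16 SE, adjusted p = 0.00511), with FDC-E sample 1 nearest to the FDC-D values. The call failed without FDC-D sample 2 (adjusted p from 0.000225 to 0.0527 over the alternatives). Irf5, a factor of Toll-like receptor signalling in myeloid and B cells, had 465, 509 and 531 on FDC-E arrays, against 937 and 1031 on FDC-D arrays, and fell 1.82-fold (-0.86 ± 0.08 SE, adjusted p = 6.98e-05). Irf3, which switches on Ifnb1 after virus sensing, had 274, 269 and 268 on FDC-E arrays and 366 and 396 on FDC-D arrays, and fell 1.31-fold (adjusted p = 0.00193). The 3 FDC-E arrays lay close together and below both FDC-D arrays for Irf3 and Irf5. Irf8, which B cells, plasmacytoid dendritic cells and myeloid precursors need, fell 1.23-fold (adjusted p = 0.0172), and lost the call without either FDC-D array and when replicate numbers entered as a block (0.00428 to 0.138 over the alternatives).

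Irf7 and Irf9 did not pass. Irf7, which interferon induces and which amplifies interferon production, had log2 fold changes of 0.05, -0.13 and -0.03 at its 3 tested probe sets. The probe set with -0.13 lacked a value for FDC-E sample 2, and those with -0.13 and -0.03 were marked as shared within a family. Irf9 had -0.14 (adjusted p = 0.185), and fell under quantile normalization and under scaling to the median array (adjusted p from 0.0373 to 0.631 over the alternatives). Of the Irf2-binding proteins, corepressors caught by the rule through their name, Irf2bp2 had 1002 and 729.6 on the FDC-E arrays of set B, against 1724 and 1489 on its FDC-D arrays, and fell 1.80-fold (-0.85 ± 0.12 SE, adjusted p = 0.000415). Irf2bpl had 918 and 984 on FDC-E arrays and 695 and 699.9 on FDC-D arrays, and rose 1.32-fold (0.41 ± 0.07 SE, adjusted p = 0.000791). Its other probe sets had log2 fold changes of 0.07 to 0.68, of which the highest passed.

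**Figure D3:**
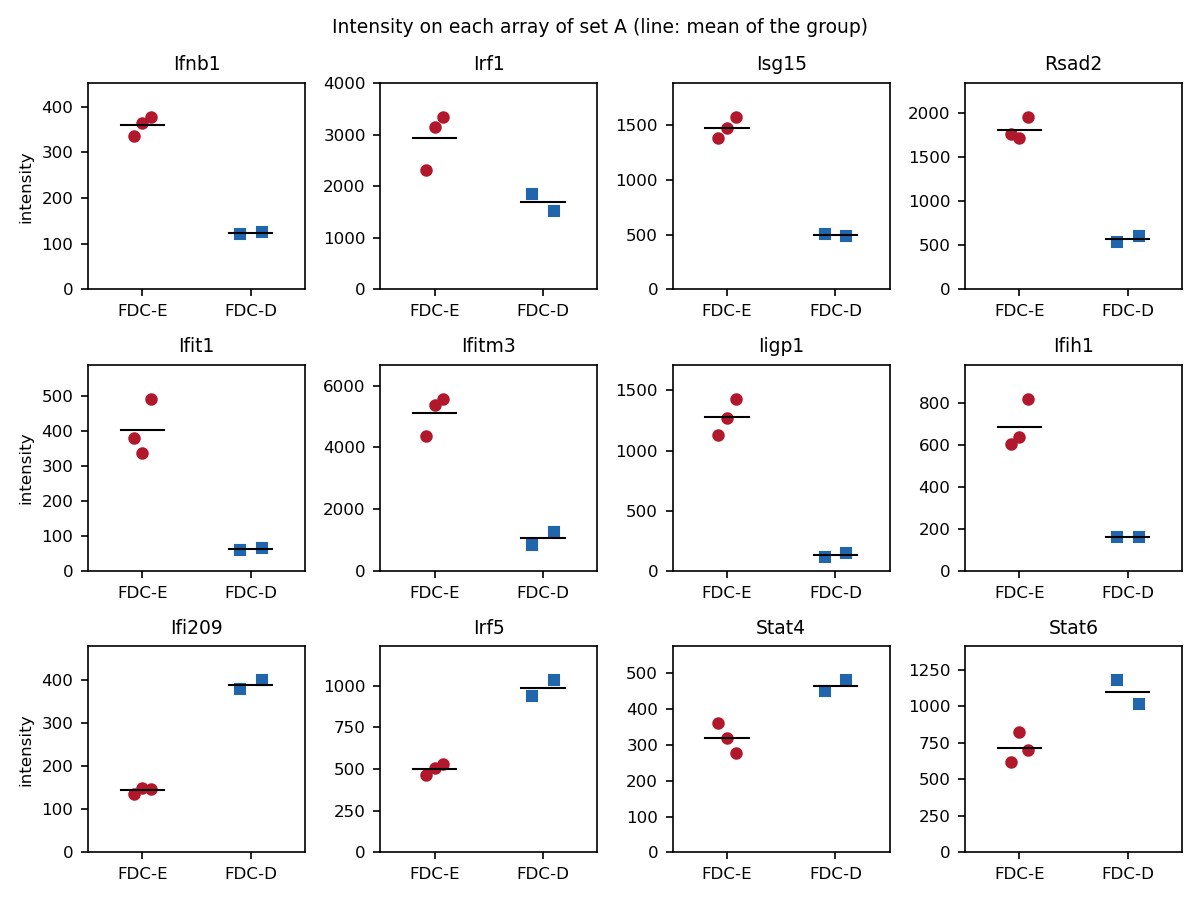
Intensity (y axis, linear from 0) on each array of set A for 12 genes, FDC-E arrays 1, 2 and 3 as red circles and FDC-D arrays 1 and 2 as blue squares, with the group mean as a line. In the first 8 panels all FDC-E values lie above all FDC-D values, and in Ifi209, Irf5, Stat4 and Stat6 all lie below. The probe sets of Ifnb1, Ifit1, Iigp1, Ifih1 and Ifi209 passed the filter through 1 group only.

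Ifih1, the cytoplasmic sensor of double-stranded RNA also called MDA5, rose at both probe sets and was singled out after its values were seen. On set A it had 604, 638 and 819 on FDC-E arrays, against 162 and 159.6 on FDC-D arrays, a 3.09-fold rise (1.63 ± 0.11 SE, adjusted p = 1.17e-05). On set C it had 351, 330.0 and 369 on FDC-E arrays and 275 and 265 on FDC-D arrays, a 1.25-fold rise (adjusted p = 0.0053) that did not pass once replicate numbers entered as a block (0.00282 to 0.0534 over the alternatives). The set A probe set passed the filter through the FDC-E arrays alone, so its direction is no support for that on set C.

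The Ifit genes, whose proteins bind foreign RNA and curb its translation, rose at Ifit1, Ifit2 and Ifit3. Ifit1 had 379.7, 338 and 492 on FDC-E arrays, against 59.0 and 65.2 on FDC-D arrays, and rose 3.24-fold (1.70 ± 0.12 SE, adjusted p = 1.35e-05). Ifit2 had 170.2, 237 and 241 on FDC-E arrays and 60.4 and 56.1 on FDC-D arrays, and rose 2.06-fold (1.04 ± 0.11 SE, adjusted p = 0.000125). Ifit3 had 372, 443 and 489.7 on FDC-E arrays and 239 and 212 on FDC-D arrays, and rose 1.66-fold (0.73 ± 0.10 SE, adjusted p = 0.000632). In these 3 genes even the lowest FDC-E array lay well above the highest FDC-D array. The probe sets of Ifit1 and Ifit2 passed the filter through the FDC-E arrays alone, so their direction is given as a description. The FDC-D values of Ifit1 and Ifit2 lay below the pseudocount of 88.5, so their fold changes are understated on this scale. The related genes Ifit1bl1 and Ifit1bl2 had -0.15 and 0.19 and did not pass at the brightest probe set.

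The Ifitm proteins sit in membranes and block the entry of enveloped viruses. Ifitm3 had 4379, 5373 and 5573 on FDC-E arrays, against 849 and 1272 on FDC-D arrays, and rose 4.58-fold (2.19 ± 0.17 SE, adjusted p = 1.72e-05). Ifitm6, another member, had 235, 233 and 203 on FDC-E arrays and 311 and 390.1 on FDC-D arrays, and fell 1.40-fold (-0.49 ± 0.09 SE, adjusted p = 0.00367), a call that failed without FDC-D sample 2 (0.000439 to 0.0534 over the alternatives). Ifitm10 had 0.08 and did not pass, and Ifitm1 and Ifitm2 were too dim to test, at 34.2 to 59.3.

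Of the classical antiviral genes, Rsad2 and Isg15 rose at each of their tested probe sets. Rsad2, whose product viperin blocks the release and copying of several viruses, had 2179 and 2833 on the FDC-E arrays of set B, against 690.3 and 646 on its FDC-D arrays, and 1762, 1712 and 1946 on the FDC-E arrays of set A, against 532 and 603 on its FDC-D arrays. The rises were 3.43-fold (1.78 ± 0.11 SE, adjusted p = 7.76e-07) on B and 2.89-fold (1.53 ± 0.09 SE, adjusted p = 3.98e-06) on A. Isg15, a ubiquitin-like protein that is attached to others during infection, had 1379, 1469.6 and 1571 on FDC-E arrays and 505 and 491 on FDC-D arrays, and rose 2.66-fold (1.41 ± 0.08 SE, adjusted p = 3.55e-06). Groups did not overlap at these probe sets. Isg20, an exonuclease, had 0.07 (adjusted p = 0.556). Isg20l2, a nucleolar relative of it, had 246 and 235 on FDC-E arrays and 335 and 305 on FDC-D arrays, and fell 1.25-fold (-0.32 ± 0.06 SE, adjusted p = 0.00278). A dimmer Isg20l2 probe set had 166 and 181 on FDC-E arrays and 202 and 193 on FDC-D arrays. It did not pass (-0.13, adjusted p = 0.117). The Mx genes, dynamin-like antiviral GTPases, were too dim to test and are given after their values were seen, at 89.2, 108 and 104 for Mx1 and 120.2, 129.8 and 118 for Mx2 on FDC-E arrays and 75.0 to 82.6 on FDC-D arrays.

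Some proteins of the Oas family make the second messenger that switches on RNase L. Of its 6 tested genes 2 rose and 1 fell, where 19.3% of all tested genes rose and 14.5% fell. The share that fell is thus near that of all genes. Oasl2 had 509.8 and 532 on the FDC-E arrays of set B and 399.5 and 401 on its FDC-D arrays, and rose 1.25-fold (0.32 ± 0.06 SE, adjusted p = 0.00219). Oas2 had 192 and 189 on FDC-E arrays, against 256 and 297 on FDC-D arrays, and fell 1.31-fold (-0.39 ± 0.07 SE, adjusted p = 0.00114). Oasl1 rose 1.22-fold (adjusted p = 0.0129), and not without FDC-E sample 3 or either FDC-D sample (0.000389 to 0.0723 over the alternatives). Over the 6 tested genes the log2 fold change ran from -0.39 (Oas2) to 0.32 (Oasl2). Oas1c and Oas1g were too dim to test and lay lower in FDC-E cells without overlap. Oas1c had 85.3 and 85.1 on the FDC-E arrays of set B and 144 and 143 on its FDC-D arrays, and Oas1g had 124, 110.3 and 129.9 on the FDC-E arrays of set A and 149.5 and 156 on its FDC-D arrays.

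Among the interferon-inducible GTPases, which attack the vacuoles of intracellular parasites and bacteria, Iigp1 moved farthest. It had 1126, 1271 and 1429.7 on FDC-E arrays, against 118 and 152 on FDC-D arrays, and rose 6.09-fold (2.61 ± 0.11 SE, adjusted p = 7.61e-07). This probe set passed the filter through the FDC-E arrays alone, so its direction is given as a description. A second Iigp1 probe set, marked as shared within a family, rose 2.28-fold (1.19 ± 0.11 SE, adjusted p = 5.12e-05). Irgm2, a regulator of the other GTPases of this family, had 384, 456 and 529.8 on FDC-E arrays and 249.6 and 307 on FDC-D arrays, and rose 1.48-fold (0.57 ± 0.12 SE, adjusted p = 0.00625). Its call failed without FDC-D sample 1 (0.000942 to 0.0644 over the alternatives), while its probe set on set C rose 1.15-fold (adjusted p = 0.0408). Igtp and Ifi47 had 0.17 and 0.21 and did not pass, and Irgm1, likewise given after its values were seen, was too dim to test, with 108, 114 and 104 on FDC-E arrays and 59.7 and 72.4 on FDC-D arrays.

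The guanylate-binding proteins, larger GTPases of the same defence, likewise had 2 genes that rose and 1 that fell among the 6 tested, beside the same 19.3% and 14.5% of all genes. Gbp2b was too dim to test, at 51.3 to 57.3 over all arrays. Gbp3 had 692, 839 and 837 on FDC-E arrays and 564 and 506 on FDC-D arrays, and rose 1.40-fold (0.49 ± 0.10 SE, adjusted p = 0.00459), though not without FDC-D sample 2 (0.000393 to 0.0569 over the alternatives). Gbp6 had 310.2 and 390.1 on the FDC-E arrays of set B and 255 and 231 on its FDC-D arrays, and rose 1.32-fold (0.41 ± 0.09 SE, adjusted p = 0.00474). Gbp8 had 258 and 251 on FDC-E arrays, against 379.6 and 368 on FDC-D arrays, and fell 1.36-fold (-0.44 ± 0.06 SE, adjusted p = 0.000199). The FDC-E arrays thus lay on opposite sides of the FDC-D arrays for Gbp6 and Gbp8, measured on the same array set. Gbp2, also singled out after its values were seen, had 642, 698 and 722 on the FDC-E arrays of set A and 345 and 383 on its FDC-D arrays. It rose 1.71-fold there (0.78 ± 0.08 SE, adjusted p = 0.000105). On set C Gbp2 had 433, 335 and 359 on FDC-E arrays and 327 and 378 on FDC-D arrays, which overlap. That probe set stood for the gene, as it ranked higher in level within its set. It did not pass (0.08, adjusted p = 0.659), so the rise of Gbp2 on set A is outside the count of 2.

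The Ifi200 family, nuclear proteins of which some sense DNA, held large changes in both directions. Ifi207 had 569, 767 and 696 on FDC-E arrays and 192 and 315 on FDC-D arrays, and rose 2.26-fold (1.18 ± 0.16 SE, adjusted p = 0.000575), at a probe set marked as shared within a family. Ifi209 had 135, 149 and 146 on FDC-E arrays, against 377 and 398 on FDC-D arrays, and fell 2.05-fold (-1.04 ± 0.07 SE, adjusted p = 7.6e-06). The Ifi209 probe set passed the filter through the FDC-D arrays alone, so its direction is given as a description. Ifi213 had 413 and 391 on the FDC-E arrays of set B, against 779 and 849 on its FDC-D arrays, and fell 1.85-fold (-0.89 ± 0.07 SE, adjusted p = 4.22e-06). A second Ifi213 probe set had 35.3 and 39.3 on FDC-E arrays, below the pseudocount, and 179.7 and 193 on FDC-D arrays. It passed the filter through the FDC-D arrays alone and is given as a description. None of these groups overlapped, and the promoter stretches printed above show the same 10 letters of the response element core in Ifi207 and Ifi213. Ifi204 had 0.15 at a probe set marked as shared and did not pass, and Ifi202b and Ifi203 were too dim to test. As these genes are closely related neighbours, probes may read more than 1 of them, and the direction of a single member is uncertain to that extent.

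Among the remaining genes, Ifi27, a membrane protein of mitochondria and nucleus, had 1779.6, 1722 and 1807 on FDC-E arrays and 1209 and 1213 on FDC-D arrays, and rose 1.43-fold (0.52 ± 0.07 SE, adjusted p = 0.000642). Ifi27l2b, its relative, had 369.7, 414 and 381 on the FDC-E arrays of set C and 254 and 245 on its FDC-D arrays, and rose 1.46-fold (0.54 ± 0.06 SE, adjusted p = 0.000314). The third relative, Ifi27l2a, fell 1.17-fold with an adjusted p of 0.0497, and this call failed under 9 of 13 alternatives (0.0107 to 0.324). Ifi30, a lysosomal thiol reductase of antigen presentation, rose 1.48-fold (adjusted p = 0.00228), and Ifi35 had -0.02 and did not pass.

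Of the 25 genes with more than 1 probe set, 20 had more than 1 that could be tested. All tested probe sets passed in the same direction for 5 of these (Rsad2, Ifih1, Iigp1, Irgm2 and Ifi213). Some passed in 1 direction and others did not pass for 7 (Gbp2, Ifit1bl2, Ifnar1, Ifnar2, Irf2bpl, Isg20l2 and Stat5b). None passed for 7, and Stat3 alone passed in both directions. In 3 of the 5 (Ifih1, Iigp1 and Ifi213) 1 probe set had passed the filter only through the group where it was high, and its direction is no support for the other's.

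**Figure D4:**
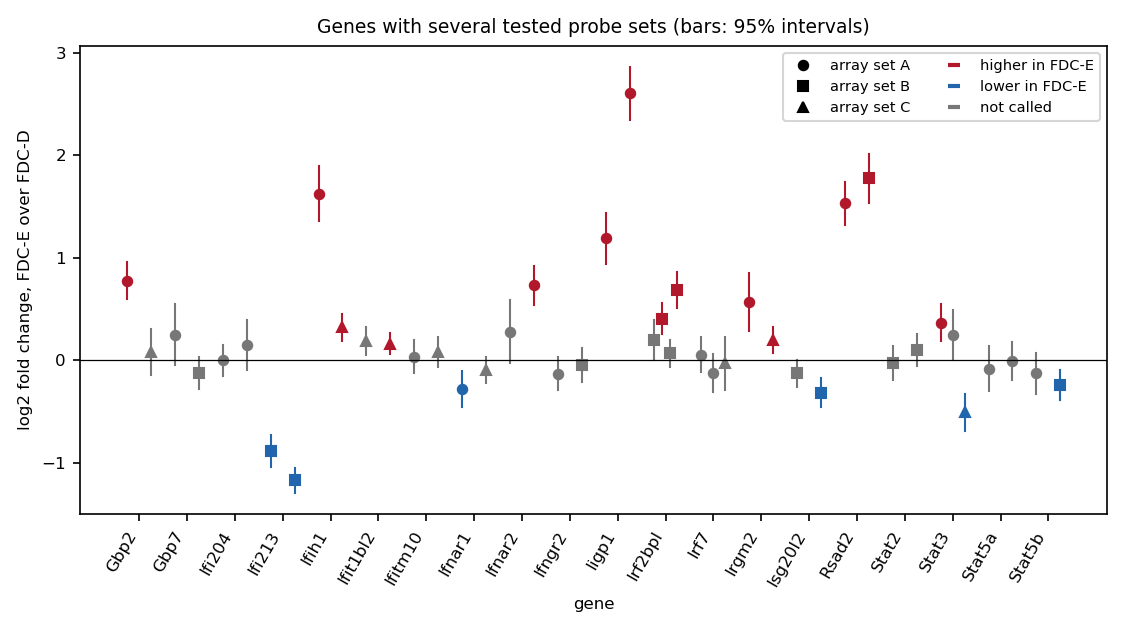
Log2 fold change of FDC-E over FDC-D cells (y axis) at each tested probe set of the 20 genes with more than 1, with 95% intervals from limma, symbols for the array set and colours for the call. The Rsad2 probe sets lie at 1.53 and 1.78, whereas Stat3 has 1 at 0.37 and 1 at -0.51.

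Other genes of the pathway, from 3 lists outside the naming rule, were also mixed, with median log2 fold changes of 0.06, -0.07 and -0.13, against 0.02 over all tested genes. Over all tested genes 19.3% rose and 14.5% fell. Of 14 tested genes of signal transduction and its inhibitors 6 rose and 3 fell. The feedback inhibitors Socs1, Socs2 and Socs3 rose, Socs1 with a mean intensity of 652 in FDC-E cells and 305 in FDC-D cells (0.91, adjusted p = 3.51e-05), Socs3 with 0.55 and Socs2 with 0.42. Cish and Ptpn11 rose as well (0.23 and 0.46), while Pias1 and Pias4 of the same list fell (-0.24 and -0.27). The receptor kinases Jak1, Jak2 and Tyk2 did not pass (-0.14, 0.10 and 0.03), Jak3 rose (0.28), and Ptpn6, a phosphatase of blood cells, fell (-1.63, adjusted p = 2.7e-06). Of 11 tested genes that sense nucleic acids or relay that signal, 1 rose (Myd88, 0.24) and 3 fell (Trim25 -0.46, Ikbke -0.37 and Tbk1 -0.28). Ddx58 and Dhx58, the relatives of Ifih1, had -0.07 and 0.01 and did not pass.

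Of 28 other tested interferon-induced genes 7 rose and 11 fell. The risers were led by the chemokine gene Cxcl10, with a mean of 2650.4 in FDC-E cells and 133 in FDC-D cells (3.63, adjusted p = 3.42e-08), followed by Lgals3bp (1.15), the tetherin gene Bst2 (1.12) and Cxcl9 (0.99). Genes that fell included Sp100, of nuclear bodies (-1.48, adjusted p = 7.75e-08), the nucleotide hydrolase gene Samhd1 (-1.35), Trim30a (-1.14), the class II transactivator gene Ciita (-0.98) and its class I counterpart Nlrc5 (-0.80). The class I peptide loading and immunoproteasome genes Tap1, Psmb8 and Psmb9 fell as well (-0.57, -0.46 and -0.42), and B2m rose (0.33, adjusted p = 0.00519).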

How the data were processed

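Per the labels, total RNA of FDC-E and FDC-D splenocytes was measured on 3 array sets, and for each set the authors deposited a table of intensity on a linear scale. Their summarisation, background correction and scaling method is not given in the sources read. Probe sets were named through each platform's annotation, with symbols updated by Entrez identifier to the GRCm38.p6 gene table (found for 10817 of 10833, 10550 of 10581 and 7677 of 7717 probe sets with 1 symbol on A, B and C). FDC-E sample 2 on set A lacked 893 values, 2 of them of the genes described (1 each of Irf3 and Irf7), which were fitted on the remaining arrays.

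Each set was fitted alone across all tested probe sets on log2(intensity + pseudocount), with the 20th percentile of positive values as pseudocount (88.5 on A, 81.2 on B, 53.1 on C), and fold changes on this scale understate those of dim genes. The deposited scale was kept, as the trimmed array means within a set differed by a factor of at most 1.08. Probe sets above the 40th percentile on at least 2 arrays were tested two-sided with limma 3.58.1 under R 4.3.3 with a trended prior variance. P-values were adjusted by Benjamini and Hochberg's method separately for each set, and probe sets were called at an adjusted p under 0.05. The smallest p of an exact permutation test would be 0.1 with 3 against 2 arrays and 0.333 with 2 against 2. A gene was counted at its brightest tested probe set, taken from the set where that ranked highest in level. Scripts were tested on simulated data.

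Arrays of a group had Spearman correlations of 0.986 to 0.995 across probe sets, and arrays of different groups 0.909 to 0.97. Precision is limited by how few arrays there are. Replicate numbers were not treated as pairs: the deviations of same-numbered samples from their group means correlated at 0.02 and 0.05 on set A and -0.24 and -0.10 on set C.

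The members and gene lists were chosen with earlier results of these data known. Values of every array are given for up to 5 genes of each of 8 role groups with the smallest adjusted p. They are also given for the Stat3 probe sets that passed in opposite directions and for genes said to be singled out. Other probe sets are given with values in some cases only. Alternatives changed the scaling, pseudocount, filter, prior variance, adjustment, probe set of a gene and replicate block, or left out 1 array.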

Additional observations from a re-analysis of the deposited data

How the results depend on the processing

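Of the 36 genes called at their brightest tested probe set, 23 kept their direction and call under all 11 to 13 alternatives run for them. Of these, 15 rose and 8 fell. The 23 take in Ifi209 and Ifit2, which were untested, and so without a call, when certain arrays were left out. Ifi209 was not tested when either FDC-D array of set A was left out. Ifit2 was tested without FDC-E sample 1 of set A, but not when either other FDC-E array was left out. The other 13 genes lost the call under at least 1 alternative, and no called gene changed direction where it was tested. The count of genes that rose was 19 to 24 and of genes that fell 10 to 19 over all alternatives, against 21 and 15. Of the 30 genes not called, 10 passed under some alternative (Gbp7, Gbp9, Ifi47, Ifit1bl1, Ifit1bl2, Ifnab, Ifnar2, Ifngr1, Irf9 and Oas3), and 11 changed sign without passing under either setting.

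Leaving out 1 array gave 17 to 23 probe sets that rose and 3 to 9 that fell on set A, with 5 that fell without FDC-D sample 1 and 3 without FDC-D sample 2, against 9 with all arrays. It gave 5 to 7 that rose and 6 to 8 that fell on set B, and 2 to 3 that rose (2 without FDC-E sample 2, FDC-D sample 1 or FDC-D sample 2) and 1 to 2 that fell (2 without FDC-D sample 1) on set C. Where it leaves 1 array in a group, that array is assumed to vary like the other group. On set C the 4 probe sets that rose became 2 under quantile normalization, 2 with scaling to the median array and 1 when replicate numbers entered as a block, and the 1 that fell became 2 with scaling to the median array and 2 with adjustment over all array sets. With the replicate block, 20 genes rose and 13 fell. It also ended the calls of Ifih1 on set C, Irf8 and Ifi27l2a, and no paired analysis was possible on set B because its groups share only the number 2. Neither other scaling moved the median log2 fold change of all probe sets by more than 0.1 (from 0.02 to -0.07 and -0.06 on set A). Leaving out an array lowers the number of arrays by construction; for the other settings the cause was not tested. Without detection calls, dim probe sets have only a level near background, so the 12 genes below the filter carry no call.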
